A study of Mus musculus with 8 samples.

Results

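Midkine (*Mdk*), pleiotrophin (*Ptn*) and 6 genes for proteins that bind them were followed through the cell classes of adult mouse bone. The members were the 8 genes whose symbols (*Mdk*, *Ptn*, *Ptprz1*, *Ncl*, *Sdc3*, *Sdc4*, *Lrp1* and *Alk*) were looked up among the 32285 genes of the deposited matrices, and all 8 were found in the matrix of every mouse. The list was chosen by earlier values of these mice, the difference in *Mdk* between mutant and control cells. The differences in *Mdk* between genotypes and between ages are therefore given as a description, and tests are read for the other members only.

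Femurs and tibiae of 8 female mice were profiled by single-cell RNA sequencing, with 1 library per mouse. The 4 controls were Sox4fl/fl Sox11fl/fl Sox12fl/fl mice without Cre, and the 4 mutants (SOXCOsxCre) carried the same floxed alleles together with OsxCre, a transgene that doxycycline represses and that is mainly active in the osteoblast lineage. The study gives doxycycline food until weaning age as the condition of its experimental mice wherever it names no other. It names no other for these mice. Both genotypes were sampled at 7 weeks of age (2 controls and 2 mutants) and at 13 weeks (2 and 2), as sister pairs. All 8 mice thus share the floxed alleles, and no mouse with Cre but without floxed alleles is among the samples, so an effect of the transgene itself cannot be told apart from that of the deletion. Periosteum was scraped off, marrow was flushed out, the bone was digested, and cells with haematopoietic surface proteins were removed with magnetic beads, so the numbers of blood cells reflect that depletion.

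Midkine and pleiotrophin are the members of a small family of secreted, heparin-binding growth factors. Both bind the chondroitin sulfate chains and the protein core of the receptor tyrosine phosphatase PTPRZ1, and binding lowers its phosphatase activity. They also bind the heparan sulfate chains of syndecans such as SDC3 and SDC4, the endocytic receptor LRP1 and nucleolin (NCL) at the cell surface, and both have been described as ligands of the receptor tyrosine kinase ALK. In bone, mice without midkine have been described as having more trabecular bone, and PTPRZ1 is known from osteoblasts and osteocytes.

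In the gene annotation of the build named in the labels (mm10, GENCODE vM21), *Mdk* (ENSMUSG00000027239) lies at chr2:91929805-91932297 on the minus strand and *Ptn* (ENSMUSG00000029838) at chr6:36714929-36810220 on the minus strand. *Ptprz1* (ENSMUSG00000068748) lies on the same chromosome as *Ptn*, at chr6:22875502-23052916 on the plus strand. *Ncl* (ENSMUSG00000026234, chr1:86344719-86359400, minus strand) holds small RNA genes such as *Snord82* on its own strand, and *Sdc3* (ENSMUSG00000025743, chr4:130792537-130826319, plus strand) and *Lrp1* (ENSMUSG00000040249, chr10:127538161-127621148, minus strand) overlap annotated genes on the opposite strand. *Sdc4* (ENSMUSG00000017009) lies at chr2:164424247-164443887 on the minus strand and *Alk* (ENSMUSG00000055471) at chr17:71868972-72604627 on the minus strand.

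The libraries held between 12086 and 14151 barcodes and between 81894604 and 156090286 unique molecular identifiers (UMIs), and between 6410 and 8753 cells per mouse were kept. The replicate 1 libraries were deeper (median 10837 to 12356 UMIs per kept cell) than the replicate 2 libraries (6604 to 7900), and any pair of libraries shared between 30 and 63 cell barcodes. Clusters were named by marker genes, and every class is therefore written as "-like". The 10 classes were *Sca1*+ mesenchymal stromal cells (MSC, 516 cells), *Lepr*+ MSC (3355), *Lepr*+ osteoprogenitors (OP, 2932), preosteoblasts (preOB, 2322), osteoblasts (OB, 25134), growth plate chondrocytes (GPC, 4428), pericytes (914), endothelial cells (3538), haematopoietic progenitors (2954) and erythroid cells (1203). A marker counted in a cluster if it was at least 2-fold above the median of the other clusters and seen in at least 10% of cells. All 14 listed *Sca1*+ MSC markers, 15 of 15 *Lepr*+ MSC markers and 10 of 10 preOB markers counted in the clusters so named. The preOB cluster also had 10 of 10 *Lepr*+ OP markers, which scored higher in it than its own list. The *Lepr*+ OP cluster likewise had 15 of 15 *Lepr*+ MSC markers and 10 of 10 preOB markers. Its 10 leading genes held 2 *Lepr*+ MSC markers (*Adipoq* and *Cxcl12*) and no marker of its own list. *Adipoq*, *Cxcl12*, *Igfbp5* and *Gas6* led both it and the *Lepr*+ MSC cluster. Of the 2 haematopoietic progenitor clusters the larger had 4 of 9 markers, with 0 among its 10 leading genes, and the other 9 of 9. The levels below are given as CPM, a gene's share of the UMIs summed over the cells of a class in 1 mouse, scaled to the same total for each, and they are compared between classes or mice but not between genes. *Sox4*, the floxed gene with the most RNA in these cells, served as the check of the deletion. It was between 368 and 452 CPM in control *Lepr*+ MSC-like cells against 143 to 200 in mutant ones, and between 178 and 202 against 50.8 and 79.0 in OB-like cells. In GPC-like cells the groups overlapped (9.64 to 31.5 CPM in controls, 5.76 to 53.1 in mutants, lower in 3 of 4 pairs of the same age and number), as they did in endothelial-like cells (287 to 470.2 and 196 to 449.8). They also overlapped in *Sca1*+ MSC-like cells (173 to 447 and 76.7 to 198, lower in 4 of 4 pairs), and in haematopoietic progenitor- and erythroid-like cells. In pericyte-like cells, again with overlap, the means at 7 and 13 weeks were 382 and 132 CPM in controls and 263 and 104 CPM in mutants.

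*Mdk* was a transcript of the stromal and early osteogenic cells. In controls it averaged 376 ± 77.7 CPM (SD, n = 4 mice) in *Lepr*+ MSC-like cells, 367 ± 88.3 in *Lepr*+ OP-like cells and 344 ± 104 in *Sca1*+ MSC-like cells, 3 classes whose levels did not differ beyond their spread. It was at 168 ± 94.9 CPM in preOB-like cells, at 76.8 ± 48.7 in pericyte-like cells and at 5.88 ± 1.52 in OB-like cells. The mean level was thus lower in preOB-like cells than in the 3 classes named first, and lower still in OB-like cells. GPC-like cells had 11.9 ± 7.30 CPM, endothelial-like cells 6.36 ± 1.56, haematopoietic progenitor-like cells 2.71 ± 0.928 and erythroid-like cells 1.26 ± 0.531. These are levels of classes that were made from the same cells, so they are given without a test.

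**Figure D1:**
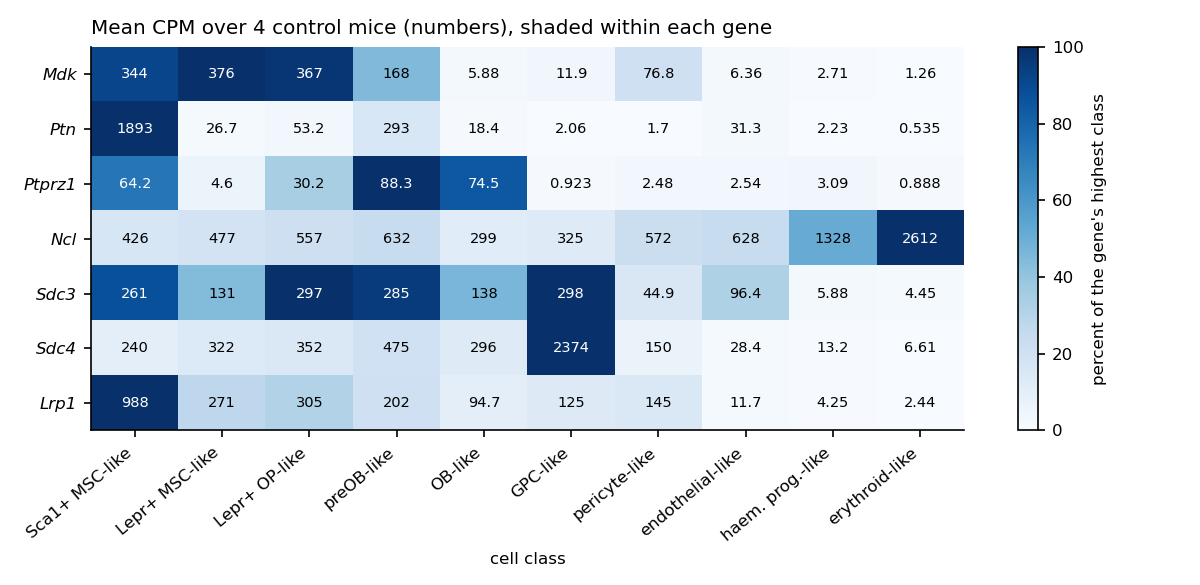
Mean CPM of each member (rows) in each cell class (columns) over the 4 control mice. Numbers are means and shading is the percent of the gene's own highest class: *Mdk* peaked in the MSC- and OP-like classes, *Ptn* in *Sca1*+ MSC-like cells, *Ptprz1* in preOB- and OB-like cells, *Sdc4* in GPC-like cells and *Ncl* in erythroid-like cells. *Alk* is not shown.

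When each cell was thinned to 2000 UMIs, 47.4 ± 6.35% of control *Lepr*+ MSC-like cells, 46.8 ± 6.60% of *Lepr*+ OP-like cells and 24.8 ± 11.1% of preOB-like cells had a *Mdk* UMI. The share was 0.578 ± 0.178% in haematopoietic progenitor-like cells, a class not known for the gene, and 1.27 ± 0.442% in OB-like cells. Before thinning the shares were 75.1%, 76.1%, 45.7%, 2.35% and 7.37%, with median depths of 5813, 6803, 7593, 10916 and 15224 UMIs.

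The classes that held most of the *Mdk* UMIs were not the most numerous ones. *Lepr*+ MSC-like cells made up 5.86% of control cells and held 32.7 ± 12.2% of their *Mdk* UMIs, and *Lepr*+ OP-like cells made up 4.94% and held 30.4 ± 7.33%. OB-like cells held 8.96% of the *Mdk* UMIs in controls. These shares depend on how many cells of each class the digestion released.

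**Figure D2:**
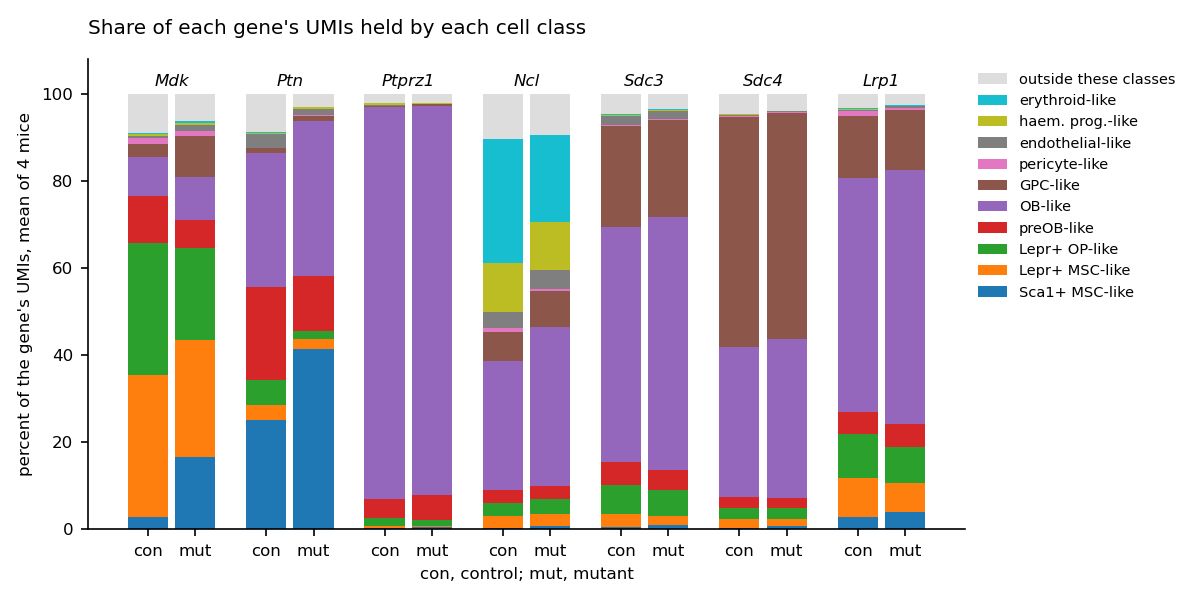
Percent of each member's UMIs (y axis) that each cell class held, as the mean of 4 control (con) and 4 mutant (mut) mice. In controls *Lepr*+ MSC- and OP-like cells together held most *Mdk* UMIs, OB-like cells held 90.1% of the *Ptprz1* UMIs, and GPC-like cells held 52.9% of the *Sdc4* UMIs.

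In mutant stromal and osteogenic cells *Mdk* was at a small share of its control level. Control *Lepr*+ MSC-like cells had 288 and 452 CPM at 7 weeks (replicates 1 and 2) and 334 and 429 CPM at 13 weeks, whereas mutant cells had 58.5 and 83.0 CPM at 7 weeks and 67.8 and 112 CPM at 13 weeks. Every mutant was below every control. On average mutants had 21.4% of the control level, and the log2 fold change over both ages was -2.21 (SE 0.22). Because *Mdk* was chosen for this contrast, its size is a description, and so is the separation of the groups. Of all genes tested in this class, 2.38% were lower in mutants without overlap.

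*Lepr*+ OP-like cells showed the difference as well, and its size was not tested against that in *Lepr*+ MSC-like cells. Their *Mdk* level was 318 and 482 CPM at 7 weeks and 281 and 385 CPM at 13 weeks in controls, against 70.2, 50.5, 48.2 and 77.0 CPM in the mutants in the same order. The groups did not overlap (2.26% of genes were lower without overlap), and the log2 fold change was -2.56 (SE 0.21). In preOB-like cells controls had 165 and 297 CPM at 7 weeks and 69.7 and 141 CPM at 13 weeks, and mutants had 25.01, 26.9, 15.7 and 15.01 CPM. Here mutants averaged 12.3% of the control level (log2 fold change -2.95, SE 0.26), again with no overlap (1.91% of genes). OB-like cells had far less *Mdk* in both genotypes, with 3.64, 6.69, 6.92 and 6.27 CPM in controls and 0.897, 1.52, 1.17 and 1.61 CPM in mutants (log2 fold change -2.09, SE 0.21). The mutants were below all controls there too, as were 7.79% of the genes tested in that class. The control level in OB-like cells (mean 5.88 CPM) was no higher than in endothelial-like cells (6.36 CPM), with 106 to 179 CPM of summed *Lepr*+ MSC markers in control and 87.9 to 156 CPM in mutant OB-like cells, and the part of stray RNA in it was not tested.

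*Sca1*+ MSC-like cells differed from these 4 classes in that the genotypes overlapped. The sizes of the differences were not tested against each other. Control levels were 198, 379, 357 and 442 CPM and mutant levels 113, 227, 134 and 95.4 CPM, so the groups overlapped, although each mutant was below its control of the same age and number. The log2 fold change was -1.22 (SE 0.31). With 24 to 151 cells per mouse this was the smallest class.

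Outside the stromal and osteogenic classes the mean of *Mdk* was also lower in mutants. Pericyte-like cells had 111, 126, 29.1 and 41.1 CPM in controls and 65.2, 15.7, 4.75 and 22.2 CPM in mutants, with overlapping groups (log2 fold change -1.87, SE 0.43). The first of the 2 pericyte clusters, led by *Rgs5*, made up 84.6% and 64.0% of these cells in the 7-week controls and 68% and 70.7% in the 7-week mutants, 27.5% and 46.8% in the 13-week controls and 50.6% and 80% in the 13-week mutants, and its part in this value was not tested. Endothelial-like cells had between 4.94 and 8.21 CPM in controls and between 0 and 4.40 in mutants, without overlap, as were 0.701% of genes tested there (log2 fold change -1.46, SE 0.50). The endothelial value without the 13-week mutant of replicate 1 was -3.96, but the 13-week mutant left in that fit had 0 *Mdk* UMIs there. The size of that value is therefore not a measure of the difference. The log2 fold change in GPC-like cells was -0.73 (SE 0.23), with 5.02 to 21.8 CPM in controls and 2.92 to 13.1 CPM in mutants. A cluster of 520 cells with all 12 GPC markers, left unnamed because markers of cycling and of *Lepr*+ OP-like cells counted too, had 101 ± 77.7 CPM (SD, n = 4) in controls and 9.42 ± 5.51 CPM in mutants. It had 30 to 128 cells per mouse, and no share of all genes was computed for it. The part of its mix of cells in that difference was not tested, so the value is not read as one of chondrocytes. The summed *Lepr*+ MSC markers were between 1169 and 1713 CPM in control and between 1283 and 2353 CPM in mutant endothelial-like cells, and the part of stray RNA in these low *Mdk* levels was not tested. In haematopoietic progenitor- and erythroid-like cells *Mdk* did not pass the filter on low counts. In the former, controls had 2.17 to 4.10 CPM, from 45 UMIs, and mutants 0 to 1.82 CPM, without overlap. Of the genes tested there, which do not include *Mdk*, 1.31% were lower without overlap. The part of stray RNA in so low a level was not tested. In erythroid-like cells the genotypes overlapped.

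The size of the *Mdk* difference was also computed at each age. For *Mdk* in *Lepr*+ MSC-like cells it was -2.38 on the log2 scale at 7 weeks and -2.04 at 13 weeks. The same values were -2.74 and -2.38 in *Lepr*+ OP-like cells, -3.14 and -2.77 in preOB-like cells, and -2.04 and -2.15 in OB-like cells. They lay further apart in *Sca1*+ MSC- (-0.75 and -1.69), endothelial- (-0.72 and -2.20) and GPC-like cells (-0.51 and -0.94), and were -1.94 and -1.80 in pericyte-like cells. The difference between the ages was tested for the 7 members other than *Mdk* in every class where they passed the filter on low counts (54 tests), since *Mdk* was chosen from the values at each age. With edgeR's quasi-likelihood test none had an adjusted p at or below 0.05, where 4 had an unadjusted p under 0.05, and DESeq2 gave 0 calls. Of all genes tested 0% were called for this contrast in any class, so the count says nothing particular about the members.

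**Figure D3:**
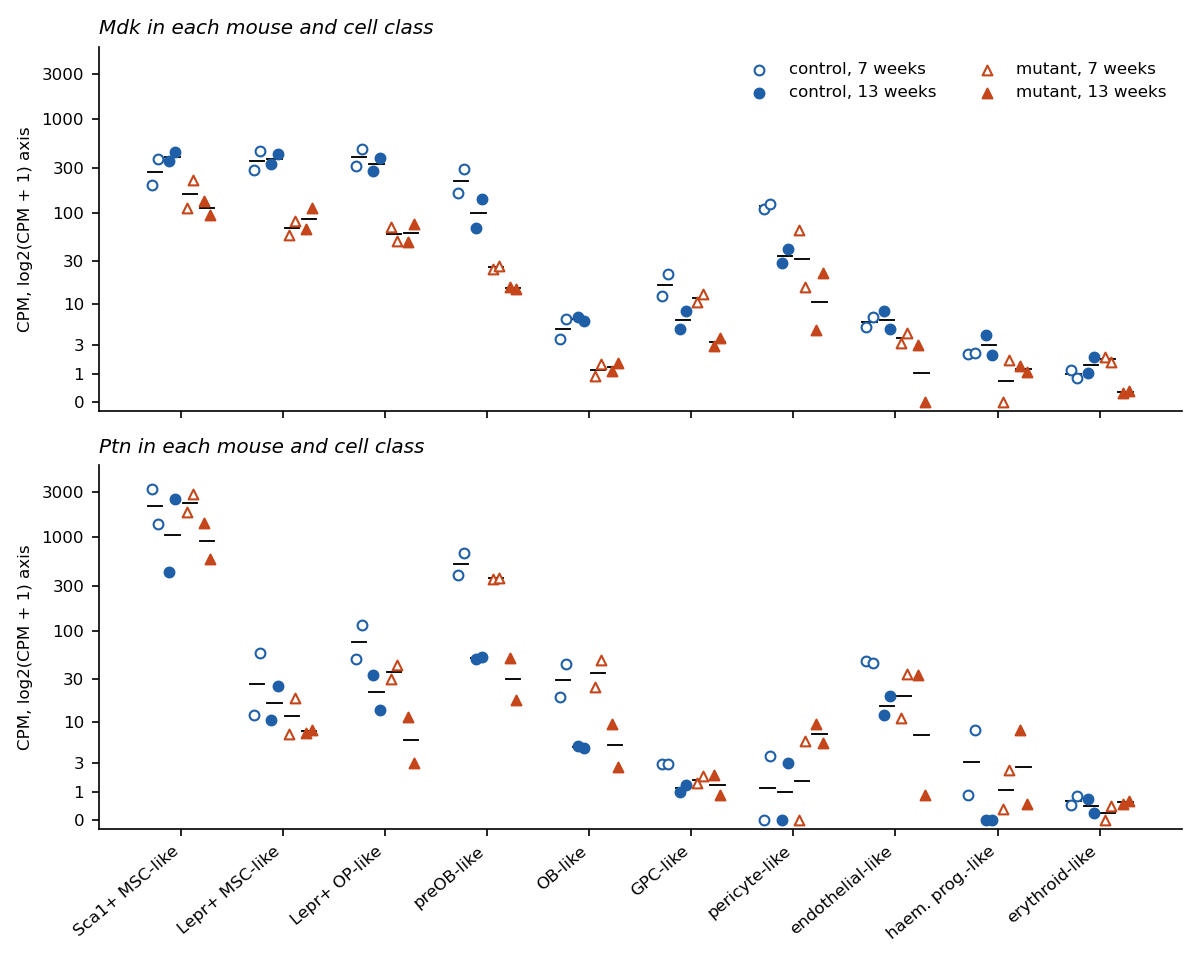
*Mdk* (upper panel) and *Ptn* (lower panel) in CPM on a log2(CPM + 1) axis, for each mouse (points) in each cell class, with the mean of the log values of each group as a bar. For *Mdk* all triangles (mutants) lie below all circles (controls) in *Lepr*+ MSC-, *Lepr*+ OP-, preOB- and OB-like cells, whereas for *Ptn* the genotypes overlap and the 13-week mice (filled) lie below the 7-week mice (open) in preOB- and OB-like cells.

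*Ptn*, the other ligand, had another distribution. It was highest in control *Sca1*+ MSC-like cells, at 1893 ± 1239 CPM, where it was among the 10 leading genes of the cluster. The 4 control mice there spread from 429 to 3238 CPM. PreOB-like cells came next at 293 ± 301 CPM, followed by *Lepr*+ OP-like (53.2 ± 43.7), endothelial-like (31.3 ± 18.2), *Lepr*+ MSC-like (26.7 ± 22.2) and OB-like cells (18.4 ± 18.6), and neighbours in this order below the first did not differ beyond their spread. GPC-, pericyte-, haematopoietic progenitor- and erythroid-like cells averaged between 0.535 and 2.23 CPM. Thinned to 2000 UMIs, 55.0 ± 16.8% of *Sca1*+ MSC-like cells and 22.3 ± 21.0% of preOB-like cells had a *Ptn* UMI, against 0.192 ± 0.385% of haematopoietic progenitor-like cells. *Sca1*+ MSC-like cells, 0.528% of control cells, held between 5.04% and 65.9% of the *Ptn* UMIs of a mouse, and OB-like cells held 31.0% on average.

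Cells with a UMI of both ligands were counted in the stromal and early osteogenic classes. At 2000 UMIs per cell, 15 of 34 and 18 of 52 *Sca1*+ MSC-like cells of the replicate 2 controls (7 and 13 weeks) had a UMI of both, as had 3 of 16 and 5 of 33 of the replicate 1 controls. In preOB-like cells 69 of 304 cells of the 7-week replicate 2 control had both (22.7%), 24 of 267 of replicate 1 (8.99%), and 5 of 222 and 8 of 265 at 13 weeks. In control *Lepr*+ OP-like cells it was 8 of 413 and 30 of 410 (7.32%) at 7 weeks and 5 of 184 and 4 of 443 at 13 weeks. Of the mutant preOB-like cells, 6 of 231 and 8 of 387 had both at 7 weeks and 0 of 253 and 0 of 270 at 13 weeks, which allows shares of up to 1.19% and 1.11% (counting error only). Of the mutant *Lepr*+ OP-like cells it was 1 of 254 and 3 of 596 at 7 weeks and 1 of 190 and 0 of 351 (up to 0.855%) at 13 weeks, and of the mutant *Sca1*+ MSC-like cells 2 of 30 and 43 of 135 (31.9%) at 7 weeks and 19 of 129 and 3 of 33 at 13 weeks. The share counted and the share expected if the 2 ligands were independent among the cells of a mouse were 18.8% and 19.5%, 44.1% and 31.8%, 15.2% and 11.9%, and 34.6% and 27.5% in *Sca1*+ MSC-like cells of the 4 controls (7 weeks first). In preOB-like cells they were 8.99% and 7.39%, 22.7% and 19.2%, 2.25% and 0.588%, and 3.02% and 1.32%. In *Lepr*+ OP-like cells they were 1.94% and 2.39%, 7.32% and 7.63%, 2.72% and 2.63%, and 0.903% and 0.660%. Of the control *Lepr*+ MSC-like cells, 5 of 431 and 5 of 221 had both at 7 weeks and 5 of 341 and 17 of 700 at 13 weeks. The shares there were 1.16% and 1.03%, 2.26% and 4.47%, 1.47% and 0.897%, and 2.43% and 2.29%. These differences were not tested.

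For *Ptn* the closest difference between genotypes was in *Lepr*+ OP-like cells. Controls had 50.5 and 115 CPM at 7 weeks and 33.9 and 13.6 CPM at 13 weeks, and mutants had 30.6 and 43.3 CPM and 11.4 and 3.0 CPM. Each age group of mutants was below its controls, as for 4.32% of all genes tested in this class, while the groups overlapped across ages. The log2 fold change was -1.45 (SE 0.36, edgeR adjusted p = 0.0907), which did not pass the threshold. With a block for each of the 4 same-age, same-number pairs it was -1.43 with an adjusted p of 0.000395. It also passed without the 7-week control of replicate 1 (-1.71, adjusted p = 0.0184) and without the 13-week control of replicate 2 (-1.72, adjusted p = 0.0217), and the adjusted p ranged from 7.55e-09 to 0.486 over 15 alternatives. The summed *Sca1*+ MSC markers in this class were 408 to 595 CPM in controls and 470.5 to 639 CPM in mutants. The part of *Sca1*+ MSC- or preOB-like cells in the *Ptn* difference was not tested.

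In *Lepr*+ MSC-like cells *Ptn* was at 12.1, 58.4, 10.7 and 25.7 CPM in controls and at 7.26, 18.6, 7.47 and 7.98 CPM in mutants, lower in 4 of 4 pairs (log2 fold change -1.26, SE 0.48, adjusted p = 0.650, 0.0337 with the block, and 1.66e-05 to 1.00 over 15 alternatives). In preOB-like cells the log2 fold change was -0.56 (SE 0.26, adjusted p = 0.549). In *Sca1*+ MSC-like cells, where the gene was highest, it was -0.26 (SE 0.52) and in OB-like cells 0.38 (SE 0.37), so that no difference could be shown in either.

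Between the ages, by contrast, *Ptn* differed in control preOB-like cells. Controls had 399 and 671 CPM at 7 weeks and 49.8 and 52.6 CPM at 13 weeks, lower without overlap, as were 20.8% of genes tested there. The edgeR log2 difference, 13 minus 7 weeks in controls, was -3.34 (SE 0.38, adjusted p = 0.00173). It was the only member called among 62 tests of age in controls, where 14 had an unadjusted p under 0.05 and DESeq2 called 5 of the 56 to which it gave an adjusted p, and 0.327% of all genes tested in preOB-like cells were called. That share was 0.0361% in *Lepr*+ OP-, 0.0687% in OB-, 0.363% in GPC-, 0.0728% in pericyte- and 0.0748% in endothelial-like cells, and 0 in the other 4 classes. These are shares of edgeR calls, and none is set beside the 14 or the 5, so those counts are not read as particular to the members. The 62 tests include *Mdk* in 8 classes, whose values are a description only. The mutants, which this contrast did not use, had 362 and 366 CPM at 7 weeks and 51.0 and 17.6 CPM at 13 weeks. All 14 alternatives kept the call (-3.68 to -2.87, highest adjusted p = 0.0334). The summed *Sca1*+ MSC markers in the same preOB-like cells were lower as well, at 1952 and 2195 CPM in the 7-week and 593 and 819 CPM in the 13-week controls, with 5 of the 14 markers lower and 2 higher at 13 weeks without overlap. Their part in the *Ptn* difference was not tested.

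The same order of ages was seen in other classes without passing the test, and not in the osteogenic ones alone. Both 13-week controls were below both 7-week controls in endothelial-like cells (47.9 and 45.8 against 11.9 and 19.8 CPM, 18% of genes) and in GPC-like cells (means of 2.95 and 1.18 CPM, 23.3% of genes), while *Lepr*+ MSC-like controls overlapped. In *Lepr*+ OP-like cells, where 15.9% of genes were in that order, the log2 difference of *Ptn* in controls was -1.82 (SE 0.43, adjusted p = 0.265). In OB-like cells controls had 19.2 and 44.4 CPM at 7 weeks and 5.10 and 4.80 CPM at 13 weeks, where 12.3% of genes were lower in both older controls (log2 difference -2.69, SE 0.55, adjusted p = 0.156, 0.0464 with DESeq2, and 3.81e-44 to 0.629 over 15 alternatives). Mutant OB-like cells had 25.1 and 48.6 CPM and then 9.49 and 2.66 CPM. In 1 cluster of the OB-like class, led by *Postn*, controls had 109 and 272 CPM at 7 weeks and 17.3 and 18.0 CPM at 13 weeks. In *Sca1*+ MSC-like cells the ages overlapped in controls.

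**Figure D4:**
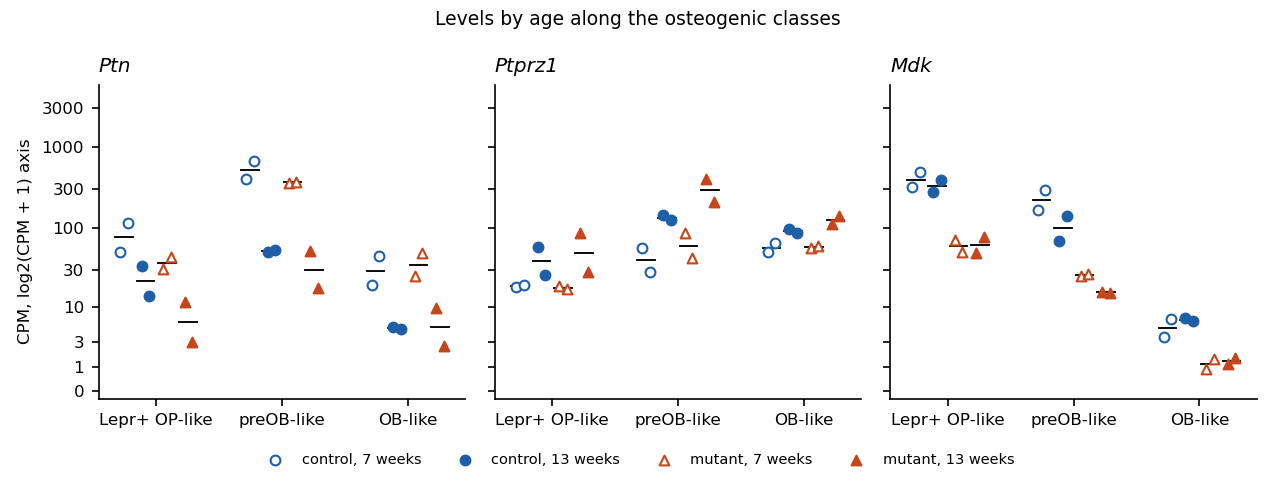
*Ptn*, *Ptprz1* and *Mdk* in CPM on a log2(CPM + 1) axis, for each mouse (points) in *Lepr*+ OP-, preOB- and OB-like cells, with the mean of the log values of each group as a bar. *Ptn* was lower and *Ptprz1* higher at 13 weeks (filled) than at 7 weeks (open) in preOB- and OB-like cells of both genotypes. *Mdk* separated the genotypes, and in preOB-like cells it was also lower at 13 weeks in both.

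For *Mdk* the ages in controls are described only, since its control values at each age were among those that chose the list. In GPC-like cells controls had 12.4 and 21.8 CPM at 7 weeks and 5.02 and 8.24 CPM at 13 weeks. The log2 difference there was -1.36 (SE 0.32, and -1.75 to -0.892 over 14 alternatives). In pericyte-like cells it was -1.70 (SE 0.42). The share of the pericyte cluster led by *Rgs5*, given above, was also lower in both 13-week controls than in both 7-week controls, and its part in that value was not tested. In preOB-like cells the log2 difference was -1.11 (SE 0.31), and in *Lepr*+ MSC-like cells it was 0.06 (SE 0.29). Both 13-week mice were below both 7-week mice in preOB-like cells of each genotype, as for 20.8% of genes tested there in controls.

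The receptor tyrosine phosphatase gene *Ptprz1* was found mainly in osteogenic and *Sca1*+ MSC-like cells. Over both ages control preOB-like cells had 88.3 ± 55.4 CPM, OB-like cells 74.5 ± 21.1, *Sca1*+ MSC-like cells 64.2 ± 37.0 and *Lepr*+ OP-like cells 30.2 ± 18.6, while *Lepr*+ MSC-like cells had 4.60 ± 1.68. The first 3 did not differ beyond their spread, and their order differed with age: at 7 weeks the control means were 41.9 CPM in preOB-, 57.4 in OB- and 54.4 in *Sca1*+ MSC-like cells, and at 13 weeks 135, 91.6 and 74.1 CPM. All other classes averaged between 0.888 and 3.09 CPM. Since OB-like cells made up a large part of the cells, they held 90.1% of the *Ptprz1* UMIs of controls.

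Within the OB-like class the level was uneven. A finer clustering, looked at after the values had been seen, set apart 461 osteocyte-like cells (35 to 99 per mouse, 460 of them in the OB-like class). These had *Ptprz1* at 909, 1078, 781 and 760.03 CPM in controls and at 707, 995, 1221 and 1043 CPM in mutants. Over all 8 mice they were 1.83% of the OB-like cells and held 19.3% of their *Ptprz1* UMIs, with 11.6% to 44.7% in single mice. At 2000 UMIs per cell 67.1 ± 3.14% of control osteocyte-like cells had a *Ptprz1* UMI, against 11.3 ± 3.93% of all OB-like cells, 14.4 ± 9.23% of preOB-like cells and 0.407 ± 0.342% of haematopoietic progenitor-like cells. The unthinned shares were 94.1%, 40.2%, 32.0% and 2.26%.

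*Ptprz1* was somewhat higher in mutant preOB- and OB-like cells, without passing the test. In preOB-like cells controls had 55.9 and 27.8 CPM at 7 weeks and 145 and 124 CPM at 13 weeks, and mutants had 85.6 and 41.7 CPM and 402 and 211 CPM. The log2 fold change over both ages was 0.89 (SE 0.26, edgeR adjusted p = 0.198), and 0.88 with an adjusted p of 0.000355 with the block (0.000229 to 0.642 over 15 alternatives). In OB-like cells controls had 50.6, 64.2, 97.7 and 85.5 CPM and mutants 56.6, 60.2, 113 and 139.5 CPM (log2 fold change 0.34, SE 0.10, adjusted p = 0.182, 0.0280 with the block, and 0.0280 to 0.441 over 16 alternatives). Without the osteocyte-like cells, controls had 40.3 and 36.5 CPM at 7 weeks and 77.4 and 76.0 CPM at 13 weeks, and mutants had 49.0 and 45.8 CPM and 96.8 and 125 CPM. Here the log2 fold change was 0.51 (SE 0.11, adjusted p = 0.0481). That alternative was chosen after seeing the data. The summed OB markers in preOB-like cells were 17611 to 31612 CPM in controls and 25048 to 46343 CPM in mutants, and their part in the preOB value was not tested. In GPC-like cells *Ptprz1* stayed at or below 3.23 CPM in every mouse.

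In both classes *Ptprz1* was higher in both 13-week controls than in both 7-week controls, and this did not pass the test either. In preOB-like cells the log2 difference in controls was 1.74 (SE 0.38, edgeR adjusted p = 0.0871, and 0.00320 with DESeq2, range over 14 alternatives 5.19e-08 to 0.516). In OB-like cells it was 0.65 (SE 0.15, adjusted p = 0.192, and 0.0208 with DESeq2, range over 15 alternatives 0.0105 to 0.740), or 0.96 (SE 0.15, adjusted p = 0.0815) without the osteocyte-like cells. The osteocyte-like cells themselves went the other way in controls, with means of 993 CPM at 7 weeks and 771 CPM at 13 weeks. In mutants their means were 851 and 1132 CPM. In preOB-like cells 11.9% of all genes tested, and in OB-like cells 19.3%, were higher in both 13-week controls than in both 7-week controls.

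The syndecan genes differed in where they were found. *Sdc4* was led by GPC-like cells, with 2374 ± 412 CPM (2165, 1971, 2921 and 2439 CPM in the 4 controls), far above the next class, preOB-like cells (475 ± 55.4). *Lepr*+ OP-, *Lepr*+ MSC- and OB-like cells followed at 352 ± 47.1, 322 ± 54.2 and 296 ± 29.5 CPM, and GPC-like cells held 52.9% and OB-like cells 34.5% of the *Sdc4* UMIs. *Sdc3* was more even, with 298 ± 38.3 CPM in GPC-like cells, 297 ± 50.1 in OP-like cells, 285 ± 57.5 in preOB-like cells and 261 ± 138 in *Sca1*+ MSC-like cells, which did not differ beyond their spread. It was 138 ± 16.0 CPM in OB-like and 131 ± 43.3 in *Lepr*+ MSC-like cells. Both syndecan genes were under 14 CPM on average in the 2 blood cell classes.

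*Sdc4* in *Sca1*+ MSC-like cells was the only member besides *Mdk* whose genotypes did not overlap in a class of the main clustering. Controls had 326, 205, 201 and 229.9 CPM and mutants 501, 372, 328 and 495 CPM, where 1.77% of all genes tested were higher in mutants without overlap. The log2 fold change was 0.85 (SE 0.27, edgeR adjusted p = 0.366) and did not pass the threshold. In GPC-like cells, where *Sdc4* was highest, it was -0.08 (SE 0.13), and in pericyte-like cells -0.69 (SE 0.26, adjusted p = 0.828). For *Sdc3* the log2 fold changes lay between -0.39 and 0.32 over the 10 classes, and none was called.

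*Lrp1*, the endocytic receptor gene, was highest in *Sca1*+ MSC-like cells (988 ± 566 CPM), followed by *Lepr*+ OP-like (305 ± 40.2), *Lepr*+ MSC-like (271 ± 29.5), preOB-like (202 ± 27.0), pericyte-like (145 ± 20.5), GPC-like (125 ± 11.4) and OB-like cells (94.7 ± 6.22). Endothelial- and blood-like classes averaged 11.7 CPM or less. In OB-like cells mutants had 109, 109.7, 113 and 94.4 CPM and controls 101, 96.6, 95.3 and 86.0 CPM (log2 fold change 0.27, SE 0.11, adjusted p = 0.376, 0.0154 with the block, and up to 0.789 over 16 alternatives). The osteocyte-like cells, seen only in the finer clustering, had 62.8 to 93.6 CPM in controls and 104 to 118 CPM in mutants, groups that did not overlap, as in 1.30% of genes, where 1.04% were called (log2 fold change 0.55, SE 0.17, adjusted p = 0.170).

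*Ncl*, for nucleolin, an abundant protein of the nucleolus that handles ribosomal RNA, was present in every class. It was highest in erythroid-like (2612 ± 505 CPM) and haematopoietic progenitor-like cells (1328 ± 238) and lowest in OB-like cells (299 ± 45.0). Its log2 fold changes between genotypes lay between -0.16 and 0.02 over the 10 classes, with SEs of 0.14 to 0.24, and none was called. *Alk*, the receptor tyrosine kinase gene, had 23 UMIs in the control cells of the 10 classes, of which 20 lay in OB-like and 3 in haematopoietic progenitor-like cells. In the other 8 classes its count over the controls was 0, which allows up to 0.0811 to 3.41 CPM for counting error only, so its level could not be compared and it passed the filter on low counts in 0 of 10 classes.

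Over the 7 members other than *Mdk*, 54 combinations of gene and class passed the filter for the comparison of genotypes. None was called with edgeR over both ages, where 9 had an unadjusted p under 0.05, and DESeq2 called 0. With the replicate block 5 were called (*Ptn* in *Lepr*+ MSC- and *Lepr*+ OP-like, *Ptprz1* in preOB- and OB-like, *Lrp1* in OB-like cells). With that block 0.74% of all genes tested were called in *Lepr*+ MSC-, 2.83% in *Lepr*+ OP-, 2.92% in preOB- and 7.83% in OB-like cells, 0.331% in *Sca1*+ MSC-, 0.757% in pericyte-, 0.0869% in GPC-, 0.0651% in erythroid- and 0.00935% in endothelial-like cells, and none in haematopoietic progenitor-like cells. Without the block edgeR called 0.0708% of all genes tested in *Sca1*+ MSC-, 0.134% in *Lepr*+ MSC-, 0.749% in *Lepr*+ OP-, 0.625% in preOB- and 1.46% in OB-like cells, and none in the other 5 classes.

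**Figure D5:**
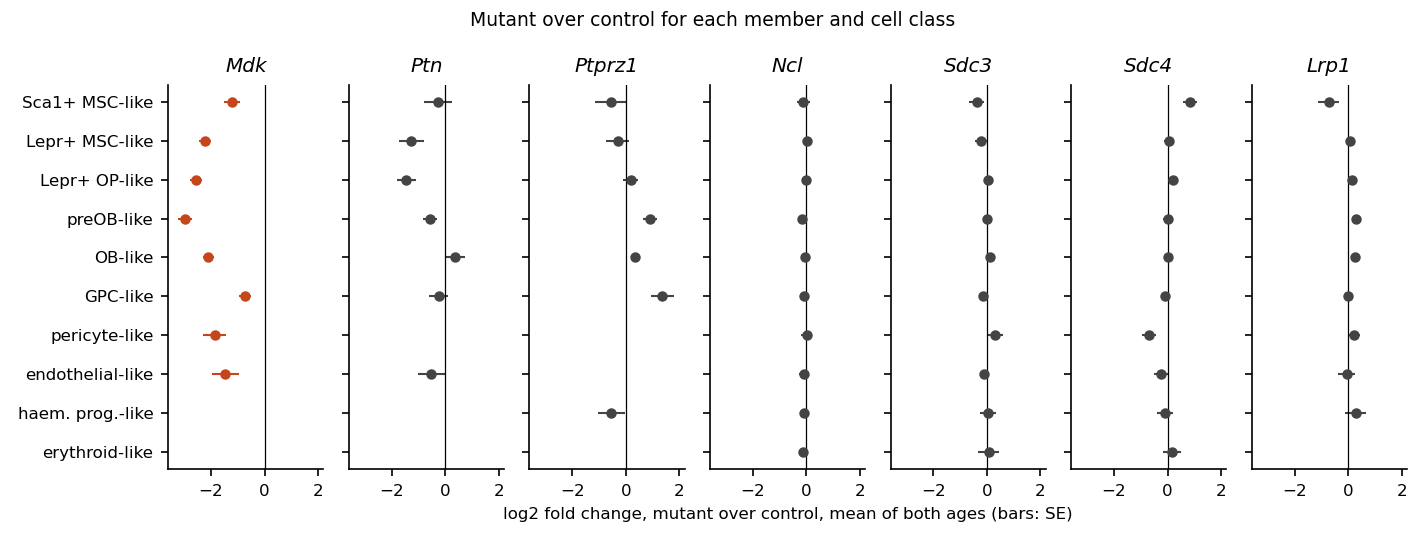
Log2 fold change of mutant over control (x axis, mean of both ages, bars are SE) for each member (panels) in each cell class (rows) where it passed the filter on low counts. *Mdk* (a description, since it was chosen for this contrast) lies between -2.95 and -0.73 in all 8 classes shown, while *Ncl* lies between -0.16 and 0.02.

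Among 52 further genes of the pathway in 5 lists, 23 to 46 per class were tested and few were called. The lists held other receptors and partners (17), other ligands of these receptors (7), PTPRZ1 substrates (6), heparan sulfate enzymes (13) and chondroitin sulfate enzymes (9). They were chosen with earlier results of these data known. The calls and adjusted p-values of listed genes are therefore a description and not independent support. Over both ages, 1 of 39 was lower in mutant *Lepr*+ OP-like cells and 1 of 46 in mutant OB-like cells, 0 in the other 8 classes and 0 higher in any. The medians of the log2 fold changes of all listed genes were -0.02, -0.06 and -0.08 in *Lepr*+ OP-, preOB- and OB-like cells, beside 0.00 for all genes tested in each.

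The gene called in *Lepr*+ OP-like cells was *Vcan*, for versican, a chondroitin sulfate proteoglycan of the matrix to which midkine binds. Controls had 275 and 302 CPM at 7 weeks and 83.9 and 58.7 CPM at 13 weeks, against 138 and 119 CPM and 44.2 and 24.0 CPM in mutants. The mutants were lower at each age, as for 4.32% of all genes tested in this class (log2 fold change -1.12, SE 0.18, edgeR adjusted p = 0.00449). The controls were lower at 13 weeks (-2.02, SE 0.24, adjusted p = 0.00404). *Vcan* was among the 10 leading genes of the preOB cluster, and the part of such cells in these values was not tested. In preOB-like cells *Vcan* was at 805 and 647 CPM and then 91.3 and 151 CPM in controls, and at 434 and 380.1 CPM and then 63.5 and 22.8 CPM in mutants. The log2 fold change between genotypes was -1.15 (SE 0.25, adjusted p = 0.0514, 0.00134 with the block, and 6.04e-07 to 0.167 over 15 alternatives), and with age in controls -2.54 (SE 0.35, adjusted p = 0.00755, and 0.0908, the highest over 14 alternatives, without the 13-week control of replicate 1). Both *Vcan* and *Ptn* were thus lower at 13 than at 7 weeks in control preOB-like cells.

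The gene called in OB-like cells was *Gpc2*, for the heparan sulfate proteoglycan glypican-2, which is known as a midkine-binding protein of neurons. It was low throughout, at 1.35, 1.29, 0.873 and 1.29 CPM in controls and at 0.400, 0.196, 0.126 and 0.249 CPM in mutants. All mutants were below all controls (log2 fold change -2.21, SE 0.31, edgeR adjusted p = 0.00805), as for 7.79% of genes tested in that class. Control means at 7 and 13 weeks were 1.77 and 1.98 CPM in endothelial-like cells. They were 2.51 and 1.71 CPM in haematopoietic progenitor-like cells, and the part of stray RNA in the OB-like level was not tested. Without the 13-week mutant of replicate 1 the adjusted p was 0.0531, the highest over 16 alternatives. In *Lepr*+ MSC-like cells *Gpc2* did not pass the filter on low counts, and its levels were 1.57 to 2.37 CPM in controls and 0 to 1.16 CPM in mutants. Of the genes tested in that class, 2.38% were lower in mutants without overlap. With the block, under which 0.74% to 7.83% of all genes were called in the 4 classes concerned, 12 combinations of listed gene and class were called. They were *Gpc2* in OB-like cells, lower *Vcan* in *Lepr*+ MSC-, *Lepr*+ OP-, preOB- and OB-like cells, higher *Cspg4* in preOB-like cells, lower *Ext1* and higher *Chst12* and *Dse* in OB-like cells, lower *Fyn* in preOB- and OB-like cells, and higher *Sulf2* (an enzyme that removes sulfate from heparan sulfate) in *Lepr*+ OP-like cells.

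The genes whose control levels followed those of *Mdk* most closely over the 10 classes, among 9518 genes with at least 20 CPM in a class, were *Ogn* (Pearson r = 0.985 of log2(CPM + 5)), *Loxl1*, *Abca8a*, *Abca9* and *Plxdc2* (0.981). For *Ptn* they were *Rab30* (0.947), *Clcn5*, *Igf2*, *Tnn* and *Wnt16* (0.906), and for *Ptprz1* they were *Fat3* (0.988), *Ust*, *Fhod3*, *Insc* and *Tmem119* (0.952). The 10 points of each correlation come from the same 4 mice and libraries, and the values describe likeness of level only.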

How the data were processed

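The authors counted UMIs with Cell Ranger 6.1.2 and deposited raw UMI counts per gene and barcode for each mouse, against mm10 per the labels. The labels' notes also name Seurat 4.3. The labels give a NextSeq 2000 and the paper a NovaSeq as the sequencer. The members, lists and markers were chosen with earlier results of these data known.

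Cells with 200 to 6000 genes and at most 10% mitochondrial UMIs were kept, and 9.67% to 11.3% of them per library were left out as simulated-doublet neighbours. Libraries were integrated with Seurat 5.3.0 (reciprocal PCA, 2000 variable genes without the members, the pathway lists and *Sox4*, *Sox11* and *Sox12*, 30 components) and clustered with the Leiden method at resolution 1. Of the marker lists with at least 3 members counting in a cluster, the one of largest average fold named it. It stayed unnamed with under 10 cells, with more of its 10 leading genes from another list, or with most markers of cycling cells beside those of more than 1 class. The rules on cycling clusters, on *Lepr*+ OP- against preOB-like cells and on joining hypertrophic with other GPC-like cells were set after the clusters had been seen. Shallow clusters, whose median cell had under 33.3% of the UMIs usual in its library (8.97% to 27.2% of cells per library, more in replicate 1) were left out of the classes, and so were 3 unnamed clusters of 650, 520 and 1 cells.

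UMIs were summed per mouse and class with at least 10 cells and tested with edgeR 4.0.16 (TMM, filterByExpr, quasi-likelihood test, a mean for each of the 4 groups), with Benjamini-Hochberg adjustment over all genes tested in a class and a threshold of 0.05. Fold changes average both ages. Each mouse is a replicate. The fits were tested on simulated data. They recovered few of the set changes in *Sca1*+ MSC-like cells, where an uncalled gene is therefore not shown to be unchanged. In OB-like cells the share of false calls was above the threshold. Named pathway genes are those called over both ages, and like genes the 5 highest by r. Alternatives were a replicate block (1 term for each of the 4 same-age, same-number pairs), DESeq2 1.42.0, other size factors, no filter, each mouse left out, at most 5% mitochondrial UMIs, 2 times the doublets, and resolution 1.5.

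The study took sister pairs, but the sources used here do not say that a shared replicate number marks a pair. It was taken as one because the deviations of same-numbered mice correlated above 0.1 at both ages in *Lepr*+ MSC- (0.266 and 0.143), *Lepr*+ OP- (0.331 and 0.183), preOB- (0.315 and 0.221) and OB-like cells (0.406 and 0.357), where the number also goes with depth. They did not in *Sca1*+ MSC- (-0.00281 at 7 weeks), GPC- (0.0978 at 13 weeks) and haematopoietic progenitor-like cells (-0.0324 at 13 weeks).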

Additional observations from a re-analysis of the deposited data

Results flagged for a closer look

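UMIs of *Ptn* and *Sdc4* were also counted in a cluster that no comparison used. It had 100 cells with few UMIs, and all 6 listed Schwann cell markers were at least 2-fold above the median of the other clusters in it. In the 2 control mice with at least 10 such cells, *Ptn* averaged 174 CPM (28 UMIs) and *Sdc4* 1470 CPM (221 UMIs). The values are given because these cells lie outside every comparison. No background level was measured for so shallow a cluster, so the part of stray RNA in them was not tested, and neither was a difference between genotypes.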

How the results depend on the processing

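The direction of the *Mdk* difference between genotypes held under all alternatives in the 8 classes where it passed the filter on low counts. Its log2 fold change was -3.34 in preOB-like and -3.20 in pericyte-like cells with at most 5% mitochondrial UMIs, and between -3.96 and -0.935 in endothelial-like cells with 1 mouse left out. For the other members, 5 were called with the replicate block, 4 without the filter, 1 with 2 times the doublets and 0 to 1 with 1 mouse left out. Without the filter 1 difference between ages was called (*Ptn* in haematopoietic progenitor-like cells). For age in controls, DESeq2 called 5, no filter 12, 2 times the doublets 2, and leaving out a mouse 1 to 3. No paired analysis was possible because the block, with 1 term for each of the 4 same-age, same-number pairs, takes up age there. For the pathway genes between genotypes, the block called 12, DESeq2 4, no filter 11 and 5% mitochondrial UMIs 4. For their age in controls, DESeq2 called 5, no filter 17 and leaving out a mouse 1 to 4. With at most 5% mitochondrial UMIs, *Lepr*+ OP-like cells held 20.4% of the *Mdk* and OB-like cells 93.8% of the *Ptprz1* UMIs. Unthinned, 75.1% of *Lepr*+ MSC-like and 45.7% of preOB-like cells had a *Mdk* UMI. The causes were not tested. Apart from the block, no share of all genes called stands beside these counts, so they are not read as particular to the members or the lists. The block changed no call other than those given.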

Other observations

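A cluster of 2204 cells with the markers of *Lepr*+ MSC-like cells had a median UMI count of 9.47% of its libraries' and entered no class. Its control *Mdk* level was 448 ± 106 CPM (SD, n = 4 mice), from 662 UMIs, beside 75.9 ± 58.4 CPM for *Ptn* and 27.2 ± 17.1 CPM for *Ptprz1*. *Alk* had 0 UMIs there.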
